A study of Rattus norvegicus with 29 samples.

Results

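Fos, on rat chromosome 6, encodes a subunit of the AP-1 transcription factor, and the chromatin around it was described here as 16 open chromatin regions (OCRs) out of the 98237 in the count table of the series. The 16 are all the OCRs of the table that overlap chr6:109200000-109400000 (build rn6), a window of 200 kb around the position of Fos, and the choice used position alone, although an OCR is in the table only because peaks were called there. They are numbered 1 to 16 along the chromosome, and OCR 7, which holds the position of Fos, is called the Fos OCR. ATAC-seq, in which a transposase inserts sequencing adapters into open chromatin, was done on the subventricular zone (SVZ), on the nucleus accumbens (NAc) and on the hippocampus, split into Ammon's horn (CA) and the dentate gyrus (DG). The animals were adult male Sprague-Dawley rats, with no transgene or other genetic change given in the labels. The METH rats received 4 intraperitoneal injections of methamphetamine at 10 mg/kg, 2 h apart, and the saline rats received 4 injections of saline at 1 mL/kg on the same schedule. The brains were taken the day after, so the data hold 1 time point and no early phase after the injections. There were 4 libraries per treatment for NAc, for DG and for CA, but 3 saline and 2 METH ones for SVZ.

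Fos is the textbook immediate early gene: neuronal activity, stimulants included, switches its transcription on within minutes and the transcript is soon lost again. The Fos protein pairs with a Jun protein to form AP-1, which binds promoters and enhancers of later genes. Transcription of Fos is driven by its promoter together with a set of enhancers on both sides of the gene that answer to different stimuli, so the flanking open regions are of interest beside the gene itself. In RefSeq annotation of the rat assembly GRCr8, the nearest protein-coding neighbours are Tmed10, a cargo receptor of the early secretory pathway, on 1 side and Jdp2, a bZIP protein that dimerizes with Jun proteins, on the other. Which OCRs lie in exons, introns or promoters was not analysed here.

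The libraries held 7.55 to 19.4 M counts in OCRs, and values are given as counts per M (CPM) with upper-quartile library sizes. The names that the peaks carry show 8 animals, each used for several regions, and 2 sets of library names, called batches here. To batch 1 belonged saline replicate 1 of SVZ and, in the other 3 regions, replicates 1 and 2 of either treatment. Batch 2 held the rest, including both METH libraries of SVZ, of which replicate 2 carried an additional tag of unstated meaning. The share of a library's counts that fell in the top 10% of OCRs by mean, called the top-decile share, ran from 45.5 to 62.4%. The tissue labels were not checked against marker genes here, since no rn6 annotation was used.

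The window was rich in open chromatin. OCRs covered 14233 bp of it, or 7.12%, and 83.6% of the 11632 genomic bins of the same length that had any OCR had fewer than 16, with a median of 6. On the lower-coordinate side of the Fos OCR lay 6 of them and on the higher-coordinate side 9, from OCR 1, centred 95.6 kb away, to OCR 16, centred 97.5 kb away. The nearest neighbour was OCR 6 (chr6:109298601-109299197), which ended 579 bp before the Fos OCR began. OCR 5 (chr6:109294370-109295008) ended 4768 bp before it, and on the other side the nearest was OCR 8 (chr6:109312435-109313529), 11102 bp away.

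The Fos OCR (chr6:109299777-109301332) was the widest of the 16, at 1556 bp, and was wider than 97.8% of all OCRs. Its mean over the 29 libraries was 58.1 CPM, or 37.3 CPM per kb, above 94.9% of all OCRs per kb. It was not the most open place of the window. OCR 4 (chr6:109281323-109282458), centred 18.7 kb from the Fos OCR, had 86.4 CPM per kb, above 99.1% of all OCRs. OCR 8 and OCR 1, with 38.9 and 36.1 CPM per kb, had levels per kb near that of the Fos OCR. OCR 6 followed with 27.3, OCR 12 with 21.5, OCR 3 with 16.7 and OCR 9 with 14.3 CPM per kb. The other 8 lay between 3.36 and 7.11 CPM per kb, where the median of all OCRs was 7.07. OCR 14 (chr6:109369467-109369983), 69.2 kb from the Fos OCR, was the lowest.

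**Figure D1:**
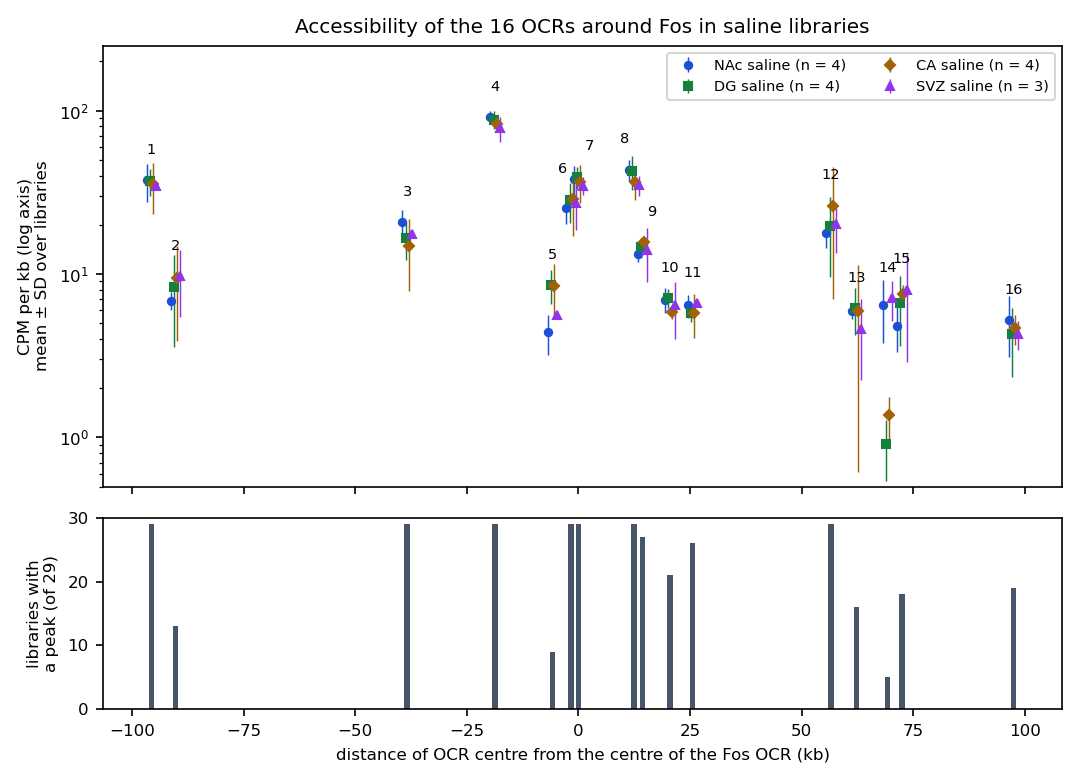
Upper plot: mean ± SD of accessibility in CPM per kb (log axis) of each numbered OCR in the saline libraries of each region, against the distance of its centre from that of the Fos OCR (OCR 7) in kb. Lower plot: number of the 29 libraries with a peak overlapping the OCR; the 4 regions lie together at most OCRs, while OCR 14 is lower in DG and CA than in NAc and SVZ.

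The authors' peak calls, made in each library by itself, define the OCRs: each of the 16 runs from the lowest start to the highest end of the peaks that overlap it. OCRs 1, 3, 4, 6, 7, 8 and 12 had a peak in 29 of 29 libraries. OCR 9 had one in 27 libraries, OCR 11 in 26, OCR 10 in 21, OCR 16 in 19, OCR 15 in 18, OCR 13 in 16, OCR 2 in 13, OCR 5 in 9 and OCR 14 in 5. When a peak had to cover at least 50% of the OCR, the Fos OCR had one in 10 of 29 libraries and OCR 11 in 1. At the Fos OCR the main peak had a fold enrichment over local background between 8.92 and 16.99, with a median of 12.4, and OCR 4 had the highest median of the window at 17.6. The summit of the main peak at the Fos OCR lay 334 to 343 bp from the start of the OCR in all 29 libraries, a spread of 9 bp over 4 regions and both treatments. A second, weak peak with its summit 1355 to 1423 bp from the start, at a fold enrichment of 2.60 to 3.10, was called in 10 libraries. It was called in 3 NAc saline, 2 NAc METH, 1 DG saline, 1 CA saline, 2 CA METH and 1 SVZ saline libraries, and thus the Fos OCR spans a strong peak at its lower-coordinate end and a weak one at the other.

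The next comparison asked whether METH changed accessibility at Fos, region by region. In NAc the Fos OCR read 58.2, 76.5, 49.4 and 52.6 CPM in saline libraries 1 to 4 and 67.7, 59.1, 60.7 and 49.1 CPM in METH libraries 1 to 4. The means were 59.2 ± 12.1 CPM (SD, n = 4) with saline and 59.2 ± 7.65 CPM (SD, n = 4) with METH. The highest NAc library was a saline one and the METH values lay almost wholly within the saline range.

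In DG the saline libraries read 58.2, 71.8, 49.98 and 64.7 CPM, with a mean of 61.2 ± 9.31 (SD, n = 4). The METH libraries read 88.6, 70.0, 44.5 and 64.4 CPM, with a mean of 66.9 ± 18.2 (SD, n = 4). The DG METH group thus held the highest library of all 29 and 1 library below every DG saline value, so the groups overlapped.

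In CA the saline libraries read 65.0, 72.2, 38.6 and 52.3 CPM (57.0 ± 14.8, SD, n = 4) and the METH libraries 51.4, 61.8, 54.0 and 44.5 CPM (52.9 ± 7.12, SD, n = 4). In SVZ the saline libraries read 61.8, 50.7 and 49.6 CPM (54.0 ± 6.76, SD, n = 3) and the METH libraries 52.1 and 44.0 CPM (48.1 ± 5.74, SD, n = 2). The CA saline group held both the highest and the lowest CA library, and in SVZ the groups overlapped as well.

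**Figure D2:**
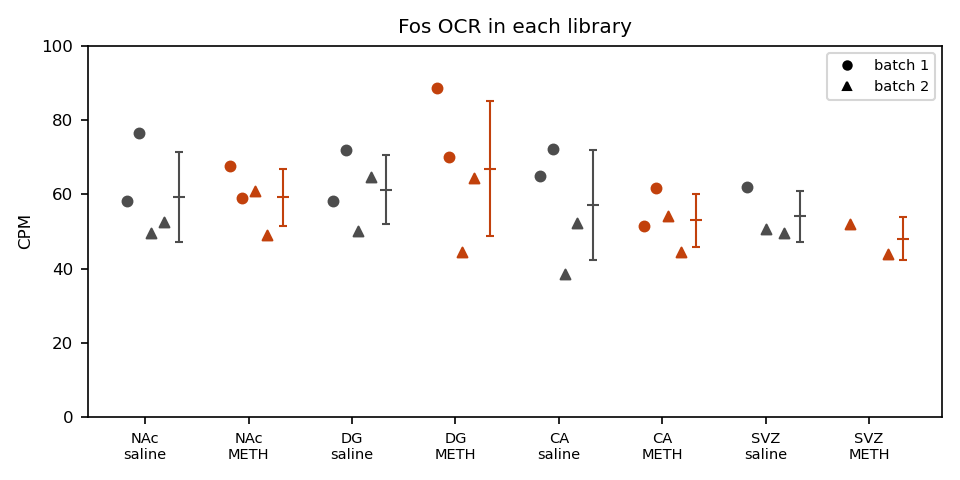
CPM of the Fos OCR in each library, by region and treatment; circles are batch 1, triangles batch 2, and the bar beside each group is its mean ± SD. Saline and METH libraries overlap in every region, and within each group that has both batches the mean of batch 1 is above that of batch 2.

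No METH effect was detected at the Fos OCR in any region by the test used here. The study placed Fos in its NAc network of genes around regions with Egr motifs that were less accessible after METH. Which regions it linked to Fos was not examined here, and its normalization differed from the one used here. The tissue was bulk, so a change in how open the site is per cell and a change in the number of cells of a type cannot be told apart. The log2 fold change of METH against saline was 0.00 (95% interval -0.41 to 0.41) for NAc, 0.13 (-0.28 to 0.54) for DG, -0.11 (-0.52 to 0.30) for CA and -0.17 (-0.70 to 0.36) for SVZ. By edgeR's quasi-likelihood test with Benjamini-Hochberg adjustment over 98237 OCRs, the FDR was 0.999991 for NAc, 0.763 for DG, 0.999963 for CA and 0.999969 for SVZ. A differentially accessible region (DAR) was defined by a fold above 1.5, which is 0.58 on the log2 scale, and an FDR under 0.001. The intervals of the Fos OCR in NAc, DG and CA lay inside 1.5-fold in both directions, whereas that of SVZ, with 2 METH libraries, did not. The sign of the small DG estimate depended on the scaling, since it was -0.02 with total counts and -0.13 with loess offsets, beside medians of all OCRs in DG of -0.25 and -0.016 under these scalings and -0.15 under the upper quartile. Differences between the 4 regions in the METH effect on the Fos OCR were tested as interactions and none was called.

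The variance of the Fos OCR lay mostly between libraries of the same region and treatment. On log2 CPM, 15.8% of its variance lay between regions, 3.12% between treatments within regions and 81.1% within groups, where the medians over all OCRs were 20.4%, 10.2% and 65.5%. Counting error was small beside this, since the 420 to 1138 counts per library give a Poisson coefficient of variation of 3.73% on average. In all 7 groups with libraries of both batches, the Fos OCR was higher in batch 1, for example 68.6 against 45.4 CPM in CA saline and 79.3 against 54.5 CPM in DG METH. The batches held different animals, each used for several regions, so these 7 groups are not independent of each other. OCRs 1, 6 and 8 were also higher in batch 1 in all 7 groups, and OCR 3 was lower in all 7, where 10.4% of all OCRs were higher and 6.05% lower in every group.

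The Fos OCR also followed the top-decile share. Over the 29 libraries, which share 8 animals, Pearson's r between its log2 CPM and the share was 0.90 and Spearman's rho was 0.87, and without the 2 libraries with the shares farthest from the median r was 0.87. Within batch 1 r was 0.91 (13 libraries) and within batch 2 it was 0.70 (16 libraries). The Fos OCR is itself 1 of the 9824 OCRs that make up the share, as are OCRs 1, 4 and 8 of the window, and 4.39% of all OCRs had an r above 0.85. No p is given, because libraries of the same animal are not independent. The part of batch and of this share in the METH comparison was not tested beyond their use as covariates: the DG estimate was -0.17 with the share as a covariate, at an FDR of 0.945.

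**Figure D3:**
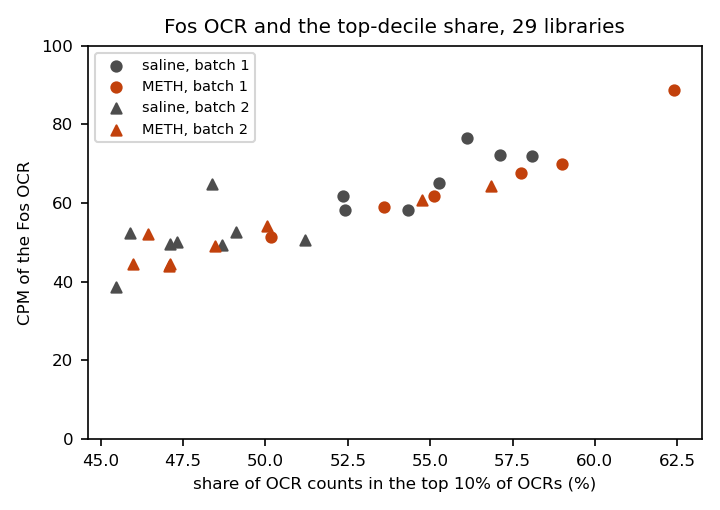
CPM of the Fos OCR against the percentage of each library's OCR counts that lies in the top 10% of OCRs by mean, for 29 libraries (grey saline, orange METH; circles batch 1, triangles batch 2). Libraries with a higher share had a higher Fos OCR, and batch 1 lies towards the upper right.

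The OCRs beside the Fos OCR gave no METH call either. OCR 6 read 17.6, 17.8, 11.7 and 13.5 CPM with saline and 19.0, 20.3, 17.2 and 11.5 CPM with METH in NAc. In DG it read 14.96, 23.5, 12.7 and 16.6 CPM with saline and 27.6, 19.4, 11.3 and 17.7 CPM with METH. In CA it read 22.1, 24.03, 10.5 and 12.0 CPM with saline and 12.1, 16.7, 16.5 and 8.72 CPM with METH. OCR 6 had its top value in the same DG METH library as the Fos OCR, and the treatments overlapped in these regions. In SVZ its saline libraries read 22.2, 14.1 and 12.6 CPM and its METH libraries 12.4 and 16.7 CPM. Its log2 fold changes were -0.16 ± 0.39 in SVZ, -0.35 ± 0.30 in CA, 0.17 ± 0.30 in DG and 0.17 ± 0.30 in NAc (± SE), none of which passed the test (FDR from 0.794 to 0.999991).

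OCR 5 was low, with 19 to 139 counts per library. In NAc it read 2.24, 3.97, 2.52 and 2.54 CPM with saline and 1.91, 4.06, 2.58 and 2.57 CPM with METH. In DG it read 6.96, 4.75, 5.98 and 4.10 CPM with saline and 4.90, 5.94, 6.60 and 2.67 CPM with METH. In CA it read 3.60, 4.07, 7.63 and 6.38 CPM with saline and 3.53, 6.08, 5.62 and 6.34 CPM with METH. The treatments overlapped in all 3 of these regions. In SVZ the saline libraries read 3.38, 3.56 and 3.78 CPM and the METH libraries 3.56 and 3.09 CPM. The log2 fold changes of METH against saline ran from -0.11 ± 0.31 (DG) to -0.01 ± 0.30 (CA), with 95% intervals as wide as -0.94 to 0.74 in SVZ.

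Over the whole window, 0 of the 16 OCRs were DARs in NAc, DG, CA or SVZ. The quasi-likelihood test called 0% of all 98237 OCRs in each of the 4 comparisons. Since it called no OCR anywhere, its lack of calls in the window does not set the window apart from the rest. DESeq2 called 0 of the 16 as well. Among all 98237 OCRs it called 8 for SVZ and 0 for each other region. Its lack of calls therefore does not set the window apart either. The study, by contrast, reported DARs in every region at the same fold and FDR limits, after its RUVr normalization. At an unadjusted p under 0.05 the quasi-likelihood test had 0 of 16 in NAc (2.45% of all OCRs), 2 of 16 in DG (9.84%), 0 of 16 in CA (0.82%) and 1 of 16 in SVZ (3.47%), and DESeq2 had 0 (3.17% of all OCRs), 0 (16.1%), 1 (1.53%) and 1 (4.61%). The 16 log2 fold changes had medians of -0.17 in SVZ, -0.14 in CA, 0.04 in DG and -0.02 in NAc, beside -0.01, 0.02, -0.15 and -0.01 over all OCRs. METH was the lower side for 10 of the 16 in NAc, for 7 in DG, for 12 in CA and for 14 in SVZ. These 16 share their libraries, so they are not 16 separate readings of a METH effect.

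The 3 OCRs with an unadjusted p under 0.05 were neither the Fos OCR nor OCRs 5 and 6 beside it. OCR 3 (chr6:109261661-109262660), 38.4 kb from the Fos OCR, read 14.2, 13.1, 16.1 and 22.8 CPM in DG saline and 7.74, 13.5, 14.97 and 7.24 CPM in DG METH. For METH against saline this gave a log2 fold of -0.61 ± 0.28 (SE), and its FDR was 0.493 by edgeR. In METH replicates 1 and 4, from different batches, it was below all saline libraries, and the other two lay among them. Within batch 1 the change was -0.36 and within batch 2 it was -0.81, and with the top-decile share, with which OCR 3 had an r of -0.61 over the 29 libraries, as a covariate it was -0.33 (FDR 0.945 by edgeR).

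OCR 15 (chr6:109372762-109373260), 72.5 kb on the other side, read 4.38, 1.92, 4.84 and 2.12 CPM in DG saline and 1.81, 1.12, 2.26 and 2.00 CPM in DG METH. For METH against saline the log2 fold was -0.88 ± 0.39 (SE), and its FDR was also 0.493. A peak was called there in 4 of 4 DG saline and 0 of 4 DG METH libraries, with 13 to 90 counts per library over the series. The share of all OCRs with such a split of peak calls was not counted here. Of the DG saline libraries, 2 of 4 kept the peak with a stricter -log10 q of 5, and 2 of 4 with an overlap of at least 50% of the OCR. The saline libraries split into a pair above 4 CPM that METH did not reach and a pair within the METH range.

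OCR 8, the nearest on the higher-coordinate side of the Fos OCR, read 43.5, 38.8 and 32.5 CPM in SVZ saline and 23.9 and 26.6 CPM in SVZ METH. Its log2 fold change was -0.60 ± 0.29 (SE), and its FDR was 0.999969 by edgeR. Both METH libraries were below the 3 saline libraries, and both belong to batch 2, in which OCR 8 was lower in all 7 groups that had both batches. With batch 2 alone the change was -0.50 (FDR 0.849 by edgeR), and it was -0.38 once the top-decile share entered as a covariate (FDR 0.3003).

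Groups without overlap were few in NAc, DG and CA. In NAc only OCR 13 had METH below saline in every library, with 3.90, 3.46, 3.27 and 3.08 CPM with saline and 1.11, 2.77, 1.02 and 2.95 CPM with METH, where 1.91% of all OCRs had METH below saline without overlap. Its log2 fold change was -0.79 ± 0.57 (SE) and did not pass the test (FDR 0.999991 by edgeR). No OCR of the window separated the treatments in DG, where 2.54% of all OCRs did, or in CA, where 0.847% did. In SVZ, OCRs 1, 3, 8 and 14 had METH below saline without overlap, and 0 OCRs had METH above, where 9.62% and 10.6% of all OCRs did so with 3 against 2 libraries.

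**Figure D4:**
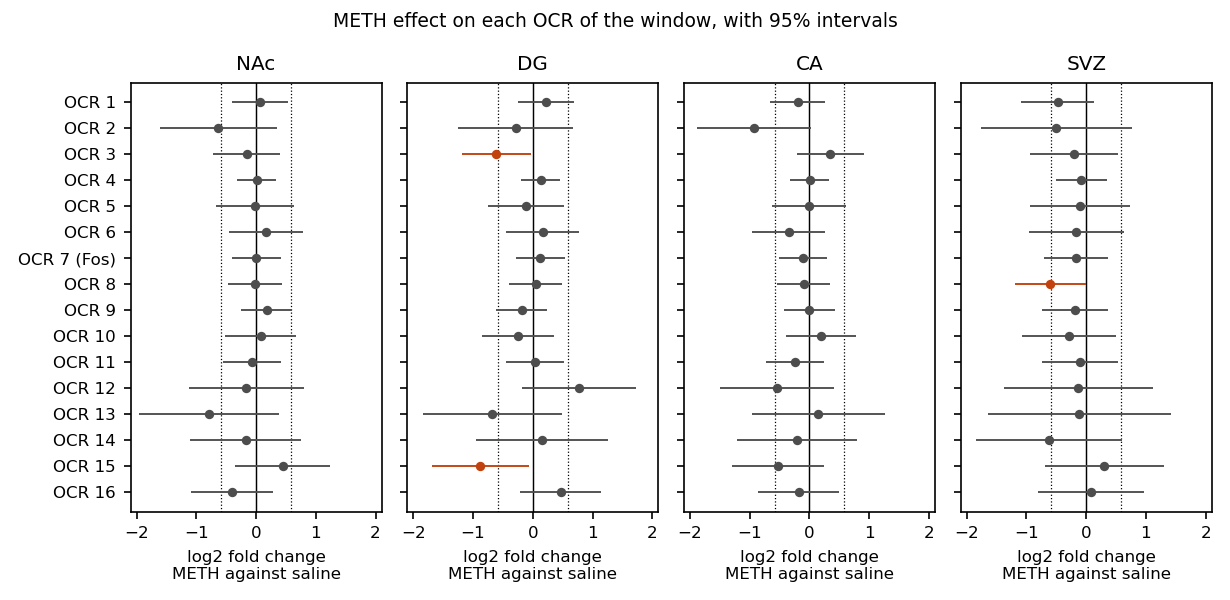
Log2 fold change of METH against saline (points) with 95% intervals (bars) of the 16 OCRs in each region, in order along the chromosome; dotted lines mark 1.5-fold and orange marks an unadjusted p under 0.05. The interval of the Fos OCR stays inside the dotted lines in NAc, DG and CA, and 0 OCRs were called.

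How firmly a METH change could be bounded differed from OCR to OCR. The 95% interval stayed inside 1.5-fold in both directions for 5 OCRs in NAc (1, 4, 7, 8 and 11), 4 in DG (4, 7, 8 and 11), 4 in CA (4, 7, 8 and 9) and 1 in SVZ (4). OCR 4, the most open place of the window, was inside in all 4 regions, and its SD within groups of 0.21 on the log2 scale was undercut by 1.62% of all OCRs. For the low OCRs 2 and 14 the intervals in DG reached a fold change beyond 1.5 in both directions, so at this depth neither a gain nor a loss of that size could be told from no change. OCR 12 (chr6:109356755-109357573) had the highest METH value of the window, 0.78 ± 0.47 (SE, FDR 0.501 by edgeR) in DG, from 7.91, 27.3, 12.8 and 16.5 CPM with saline and 37.3, 29.8, 7.29 and 36.0 CPM with METH. With 5 RUVr factors, which remove variation found in the residuals, OCR 12 was called in DG at 0.65 with an FDR of 0.000408, in a fit that called 4.64% of all OCRs in DG. That was the only METH call in the window over the 46 settings tried, and the value without these factors stayed uncalled. The study's own DARs also came after RUVr, with a number of factors that it does not state.

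The effect of METH was then compared between regions, since the study asked whether regions respond differently. Of the 6 pairs of regions, 0 of 16 OCRs were called in any (0% of all OCRs in each). An unadjusted p under 0.05 was found for 2 differences. The METH effect on OCR 15 was higher in NAc than in DG by 1.32 ± 0.55 (log2, SE, FDR 0.954 by edgeR), where 2.79% of all OCRs reached that p, and METH against saline was 0.45 in NAc and -0.88 in DG. The METH effect on OCR 3 was lower in DG than in CA by 0.96 ± 0.39 (log2, SE, FDR 0.547 by edgeR), where 8.48% of all OCRs reached that p, and METH against saline was -0.61 in DG and 0.35 in CA. OCR 3 in CA read 9.28, 10.2, 15.04 and 24.4 CPM with saline and 13.8, 17.2, 21.6 and 22.5 CPM with METH, so the treatments overlapped there. In the other 4 pairs 0 of 16 reached it, where 1.1% (NAc against CA), 2.48% (NAc against SVZ), 4.73% (DG against SVZ) and 1.58% (CA against SVZ) of all OCRs did. DESeq2 had 2 OCRs under this p for NAc against DG (3.8% of all OCRs), 1 for NAc against CA (1.61%), 2 for DG against CA (15.8%) and 2 for DG against SVZ (7.93%). It had 0 for NAc against SVZ (3.66%) and CA against SVZ (2.1%).

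Regions were compared in the saline libraries to describe where the window is open without METH. The Fos OCR stood at 61.2 ± 9.31 CPM in DG, 59.2 ± 12.1 in NAc, 57.0 ± 14.8 in CA (SD, n = 4 each) and 54.0 ± 6.76 in SVZ (SD, n = 3). No neighbours in this order differed beyond their spread, and the largest log2 difference, DG against SVZ, was 0.18 with a 95% interval of -0.26 to 0.62 (FDR 0.768 by edgeR). The Fos OCR took 14.9 to 19.2% of the counts of the window in the 29 libraries. OCR 4 ran from 70.7 to 133 CPM over all libraries and was not called between any regions.

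OCR 14 differed between regions. It is in the table only through peaks of NAc and SVZ libraries, and both its ends are those of the peak in NAc METH replicate 4, so it was defined in the regions where it is high and its differences are not independent of that definition. Its saline libraries read 4.48, 1.73, 2.66 and 4.55 CPM in NAc and 3.17, 3.04 and 4.84 CPM in SVZ. In the hippocampus the saline libraries read 0.381, 0.274, 0.721 and 0.513 CPM in DG and 0.623, 0.591, 1.02 and 0.597 CPM in CA. Every NAc and SVZ saline library was above every DG and CA saline library, and of all OCRs 19.4% (NAc and DG), 16.3% (NAc and CA), 17.9% (DG and SVZ) and 15% (CA and SVZ) had no overlap in these pairs. The depth there was low, at 3 to 16 counts per library in DG and CA and 8 to 63 in NAc and SVZ.

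OCR 14 was called higher in NAc than in DG by 7.005-fold (95% interval 3.39 to 14.5, FDR 0.000615 by edgeR) and than in CA by 4.72-fold (2.38 to 9.36, FDR 0.00200). It was called higher in SVZ than in DG by 7.67-fold (3.59 to 16.4, FDR 0.00211) and than in CA by 5.17-fold (2.51 to 10.6, FDR 0.00422). A call between regions needed a fold above 2 and an FDR under 0.01, and it was the only OCR of the window called, 1 of 16 in each of these 4 pairs. Of all OCRs, 6.6% were called between NAc and DG, 7.63% between NAc and CA, 2.03% between DG and SVZ and 3.06% between CA and SVZ, so 1 of 16 is near the background in the NAc pairs. Between NAc and SVZ and between DG and CA, 0 of 16 were called, and 0% of all OCRs were. Region took 81.6% of the variance of OCR 14 on log2 CPM, more than in 99.1% of all OCRs. This share, too, is not independent of how OCR 14 was defined.

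The METH libraries, whose counts did not enter these fold changes but whose peaks helped to define OCR 14, gave it the same order with 1 exception. They read 2.72, 3.51, 0.739 and 4.90 CPM in NAc, 2.505 and 2.27 CPM in SVZ, 0.688, 0.344, 0.591 and 0.476 CPM in DG and 0.721, 0.422, 0.515 and 0.762 CPM in CA. METH replicate 3 of NAc, at 0.739 CPM, fell within the hippocampal range. Peaks overlapped OCR 14 in 5 of the 13 NAc and SVZ libraries and in 0 of the 16 DG and CA libraries, a split that follows from how it was defined.

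The direction at OCR 14 was the same in both batches, although neither batch alone passed the FDR. Since OCR 14 was defined by peaks of the regions where it is high, these fits are not independent of that definition. NAc against DG gave log2 fold changes of 3.21 in batch 1 and 2.54 in batch 2 (FDR 0.0604 and 0.0981 by edgeR), and NAc against CA gave 2.34 and 2.16 (FDR 0.0869 and 0.109). DG against SVZ gave -3.23 in batch 1, which had 1 SVZ saline library, and -2.67 in batch 2 (FDR 0.128 by edgeR). CA against SVZ gave -2.36 in batch 1, with the same SVZ library, and -2.29 in batch 2 (FDR 0.115). Blocked by animal, 3 of the 4 calls held and CA against SVZ, at -2.16 with an FDR of 0.0168, did not. The NAc against DG call held without any 1 library, whereas NAc against CA lost it without NAc saline replicate 4 (FDR 0.0105) and with loess offsets (0.0199). DG against SVZ lost it without DG saline replicate 2 (FDR 0.0124) or 4 (0.0104) or SVZ saline replicate 3 (0.0267), and in a fit of only the regions compared (0.0107). CA against SVZ lost it without CA saline replicate 1 (FDR 0.0179), 2 (0.0122) or 4 (0.0144) or SVZ saline replicate 3 (0.0342), and with loess offsets (0.02695).

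OCR 5 was defined by peaks of DG and CA libraries alone, 9 of 16, with 0 in the 13 NAc and SVZ libraries. Its counts, too, are thus not independent of the regions that placed it in the table. In saline it was lower in NAc than in DG, with a log2 fold change of -0.95 ± 0.31 (SE, FDR 0.0417 by edgeR), and lower in NAc than in CA, with -0.95 ± 0.31 (SE, FDR 0.0383). Both had an FDR under 0.05, as did 13.8% and 15.1% of all OCRs in these pairs, but neither reached the fold and FDR set for a call between regions. DESeq2 called OCR 5 between NAc and CA at -1.03 with an FDR of 0.00452, but the share of all OCRs that it called in this pair is not given here. All NAc saline libraries, at 2.24 to 3.97 CPM, were below all DG saline libraries, at 4.10 to 6.96 CPM. CA overlapped NAc. SVZ saline, at 3.38 to 3.78 CPM, lay within the NAc range and was also below every DG saline library. Of all OCRs, 19.4% had no overlap between NAc and DG and 17.9% had none between DG and SVZ. NAc against SVZ was -0.34 ± 0.34 (SE, FDR 0.996 by edgeR). The NAc against CA value was -0.31 in batch 1 and -1.46 in batch 2. Over the 29 libraries the log2 CPM of OCRs 5 and 14 had an r of -0.63. OCR 14 was defined by peaks of NAc and SVZ alone, so this r is not independent of how the OCRs were defined.

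**Figure D5:**
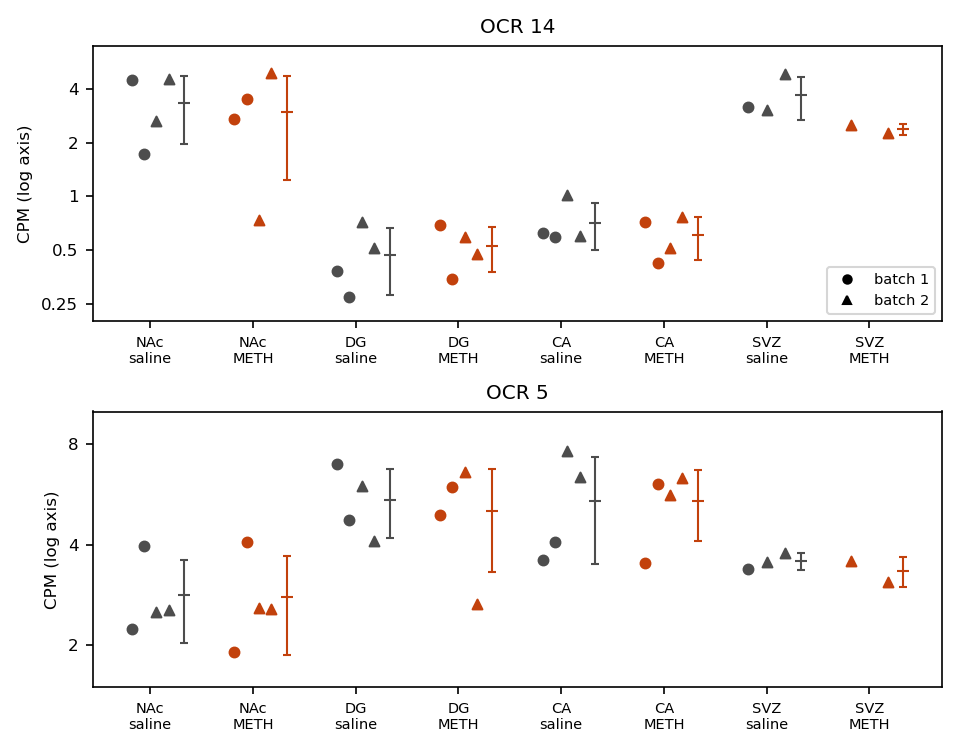
CPM (log axis) of OCR 14 and OCR 5 in each library by region and treatment; circles are batch 1, triangles batch 2, and the bar beside each group is its mean ± SD. OCR 14 is at or below 1.02 CPM in every DG and CA library, and OCR 5 has its lowest means in NAc, where the libraries overlap those of SVZ.

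The OCRs of the window did not vary as a unit. The Fos OCR varied with OCR 1 (r = 0.87), OCR 6 (0.86), OCR 8 (0.85), OCR 4 (0.78) and OCR 12 (0.67) over the 29 libraries, and against OCR 13 (-0.49) and OCR 3 (-0.46). These r values are across libraries that share animals, batches and the top-decile share. OCRs 1, 8, 6 and 4 followed the share themselves, with r of 0.92, 0.87, 0.85 and 0.80, and OCRs 3 and 13 ran against it, with -0.61 and -0.60. The pair with the lowest r was OCR 3 and OCR 12, at -0.67.

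Among all OCRs outside the window, the 3 most like the Fos OCR in log2 CPM over the 29 libraries were chr8:128805442-128806583 (r = 0.942), chr9:14551110-14552548 (0.931) and chr3:3890317-3891739 (0.930). Over the 8 group means they were chr4:118327916-118330050 (0.995), chr10:47065400-47066342 (0.994) and chr9:84383214-84384396 (0.993). No OCR was in both sets of 3. An r above 0.9 was reached by 71 OCRs over libraries and by 2478 (2.52% of OCRs) over the 8 group means. The likeness carries the shared batch and top-decile share.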

How the data were processed

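Chromatin was taken from frozen tissue by Omni-ATAC. The authors processed the reads with the AIAP pipeline at default settings against rn6, called peaks in each library separately, and merged them into a consensus set of OCRs. The read counter and the transposase offset are not given in sources used here. Values deposited per OCR are whole counts of reads without normalization. For its own tests the study normalized counts by upper quartile and then by RUVr, with a number of factors that it does not state. In the authors' peak lists each peak has a fold enrichment over background, as a ratio, and -log10 p and q values.

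The members and the contrasts were chosen with earlier results of these data known. Groups came from the sample titles. Counts of all 98237 OCRs were fitted in R 4.3.3 with edgeR 4.0.16 in 1 model of 8 groups and 29 libraries (upper-quartile normalization, robust quasi-likelihood fit). filterByExpr kept 98237 OCRs, and the Benjamini-Hochberg adjustment ran over all of them. A DAR had a fold above 1.5 and an FDR under 0.001, and a call between regions had a fold above 2 and an FDR under 0.01. Log2 CPM used a prior count of 2, and a peak overlapped an OCR by at least 1 bp. Correlations are descriptions. The fit was checked on simulated counts.

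All 16 OCRs are described. Those within 5 kb of the Fos OCR are given in full, and others are named by a call, an unadjusted p under 0.05, or the extreme width or mean. OCRs 1, 2, 9, 11, 12, 13, 15 and 16 are also named where a range or a group without overlap turns on them, chosen after their values were seen. By the names that the peaks carry, libraries of NAc, DG and CA with equal number and treatment came from 1 animal, so the animal was also used as a block. Deviations from group means of libraries of 1 animal had r between -0.43 and 0.66 over 39 pairs, 15 of them above 0.1. Equal numbers in METH and saline are different animals. Alternatives were other normalizations and filters, DESeq2 1.42.0, RUVr factors, batch, blocks, and leaving out each library. Lists of immediate early genes and cell type markers, promoter motifs and sequences were not analysed here.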

Additional observations from a re-analysis of the deposited data

Results flagged for a closer look

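In 96 groups of 4 libraries (16 OCRs in 6 groups each), 3 held a library far from the other 3, where chance alone gives about 5% of groups. OCR 2 in DG read 1.18 CPM in METH replicate 3, and 3.44 to 3.91 CPM in the other METH libraries. OCR 14 in CA read 1.02 CPM in saline replicate 3, and 0.591 to 0.623 CPM in the others. OCR 16 in NAc read 11.6 CPM in saline replicate 1, and 5.195 to 6.09 CPM in the others.

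The peak lists also held 33 of 416 peaks of the window, at 9 sites, that overlap no OCR of the count table (7.93%, where 19.5% of all peaks do so), so no counts exist for them here. Sites were flagged only where a larger share of METH than of saline libraries of some region had a peak, which held at 3. The reverse held in some region at most of the 9 sites. One was chr6:109370962-109371276 in NAc, with a peak in 4 of 4 saline and 1 of 4 METH libraries. At chr6:109387582-109388008 a peak was called in 3 of 4 METH and 1 of 4 saline libraries in DG, and in 1 of 2 METH and 0 of 3 saline libraries in SVZ. CA had the reverse, with 1 METH and 2 saline libraries. At chr6:109246716-109247057 and at chr6:109382532-109382830 the SVZ had a peak in 1 METH and 0 saline libraries. Elsewhere the first of these sites had a peak in 1 saline and 0 METH libraries of CA and of DG, and the second in 2 saline and 0 METH libraries of CA and in 1 of either treatment in DG. These differences were not tested.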

How the results depend on the processing

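No METH or interaction comparison gained a call in the window under any alternative except 5 RUVr factors, which called 1 OCR (OCR 12) for METH in DG and 2 OCRs (3 and 12) for DG against CA, where that fit called 4.64% and 4.23% of all OCRs. The saline calls between regions, 1 OCR each, went to 0 in batch 1 alone and batch 2 alone for NAc against DG, NAc against CA, DG against SVZ and CA against SVZ. Each batch alone had fewer libraries per group, and the share of all OCRs called in such a fit is not given here. The saline calls also went to 0 with loess offsets for NAc against CA and CA against SVZ, and with only the regions compared for DG against SVZ. DESeq2 called 2 OCRs for NAc against CA, but the share of all OCRs that it called in this pair is not given here. Leaving out 1 library gave 0 to 1 calls for NAc against CA (0 without NAc saline replicate 4), for DG against SVZ (0 without DG saline replicate 2 or 4 or SVZ saline replicate 3) and for CA against SVZ (0 without CA saline replicate 1, 2 or 4 or SVZ saline replicate 3), and no change elsewhere. With an overlap of at least 50% of the OCR, 3 OCRs had a peak in every library, not 7, and the Fos OCR was among those lost. With the animal as a block, CA against SVZ had 0 calls. With the replicate number as a block the Fos OCR stood at 0.014 for METH in NAc, and no other call changed under either block. The cause of these changes was not tested.

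Small uncalled differences changed sign, here in log2. METH at the Fos OCR was 0.030 in NAc with TMM, 0.023 with DESeq2, 9.97e-05 with the likelihood ratio test, 0.011 with batch as a covariate, 0.11 in batch 2 and 0.00087 with only that region. In DG it was -0.016 with total counts, -0.13 with loess, -0.17 with the top-decile share (chosen after seeing the data) and -0.076 in batch 2. In CA it was 0.12 in batch 2, and in SVZ 0.043 with loess and 0.025 with the share. METH at OCR 6 was 0.16 in CA in batch 2, -0.28 in DG with the share and -0.011 in batch 2, and in SVZ 0.15 with the share, 0.064 with batch and 0.12 in batch 2. METH at OCR 5 in CA was 0.037, 0.020 and 0.0040 with 1, 3 and 5 RUVr factors, 0.0086 with the share and 0.32 in batch 1. In DG it was 0.054 with loess, 0.023 with DESeq2 and 0.013 with the share. In NAc it was 0.017 with TMM, 0.020 with loess, 0.012 with DESeq2, 0.0040 with 3 RUVr factors, 0.019 with the share and 0.024 in batch 2. Without 1 library, METH at the Fos OCR ran from -0.078 to 0.15 in NAc, -0.037 to 0.28 in DG and -0.25 to 0.027 in CA. OCR 6 then ran from -0.068 to 0.37 in DG and -0.39 to 0.12 in SVZ, and OCR 5 from -0.25 to 0.19 in NAc, -0.27 to 0.096 in DG and -0.16 to 0.20 in CA. Batch 1 holds no METH library of SVZ, and METH could not be fitted with the animal as a block, so these have no value.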

Other observations

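Of the sites with peaks outside the count table, some were called in certain regions and not in others. At chr6:109370962-109371276, between OCRs 14 and 15, a peak was called in 4 of 4 NAc saline, 1 of 4 NAc METH and 1 of 3 SVZ saline libraries, and in 0 DG or CA libraries, as at OCR 14. At chr6:109212065-109212383 it was called in 2 saline and 2 METH libraries of CA and in 0 libraries of the other regions. At chr6:109355661-109355954 it was called in 2 saline and 1 METH libraries of NAc alone. The fold enrichment over background at these 3 sites ran from 3.56 to 7.56, and a missing call is no measure of closed chromatin at this depth.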
